A study of Mus musculus with 6 samples.

Results

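Genes that tune the strength of T cell receptor (TCR) signalling were examined in induced T (iT) cells from mouse spleen. The 10 genes were Cd5, Cd6, Ptprc, Ptprcap, Ptpn2, Ptpn6, Ptpn7, Ptpn11, Ptpn22 and Csk, taken by name from the 23420 rows of the expression table. All 10 were among the 10476 genes that passed the filter on low values (1 TPM or more in 3 or more libraries) and were tested. TPM is a level scaled by transcript length and by the total of its library, so levels of different genes can be set side by side. The iT cells came from pluripotent stem cells of C57BL/6 background (CD45.2+) with a doxycycline-inducible Runx1-p2a-Hoxa9 cassette at the Rosa26 locus, called iR9 cells. Blood progenitors induced from them were transplanted into irradiated B-NDG mice (CD45.1+, NOD background, Prkdc scid, lacking Il2rg), which form no T, B or NK cells of their own. The main transplantations of the study were done without doxycycline, and its authors could not exclude weak leaky expression from the cassette afterwards. Both populations therefore carry the cassette and grew in the same kind of host, and they differ in the sort, for CD4 (CD4 single-positive, CD4SP) or for CD8 (CD8SP). The labels do not give the age of the recipients at sorting, but the study states their age at transplantation and the week of sorting. There were 3 CD4SP and 3 CD8SP libraries, each from 1000 sorted cells, and no natural T cells are among them. The study describes each library as a biological replicate, but neither it nor the labels say whether the libraries of a population came from separate mice. The p-values measure the spread between these samples, part of which may be technical.

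Signalling from the TCR starts with the kinase Lck. Its activity is set by an inhibitory tyrosine near its tail and an activating tyrosine in its activation loop. Csk phosphorylates the inhibitory tyrosine, the transmembrane phosphatase CD45 (encoded by Ptprc) removes that phosphate, and cytosolic phosphatases such as those encoded by Ptpn22 and Ptpn6 act on the activating tyrosine and on kinases and chains further along. The surface receptors CD5 and CD6 carry tyrosines in their tails that recruit such enzymes, and CD5 is known in the thymus and periphery as a receptor whose surface level follows the strength of self-recognition.

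Library totals ran from 997896 to 998100 TPM, and because TPM keeps no read number the sequencing depth is unknown. Transcripts of ribosomal protein genes took 24.5% to 29.4% of TPM in the CD4SP libraries, against 32.6% to 36.4% in the CD8SP ones, and this share separates the libraries exactly as the populations do. Over all tested genes the log2 fold change, CD4SP over CD8SP, had a median of 0.28. Cd4 was at 279 to 331 TPM in the CD4SP libraries, against 0 to 0.104 TPM in the CD8SP ones, and Cd8a was at 0.319 to 2.93 TPM in the former and 1038 to 1161 TPM in the latter. The 7 T cell markers summed to 5065 to 5410 TPM in the CD4SP libraries, against 4157 to 4646 TPM in the CD8SP ones. Of 7 B cell markers, Ms4a1, Pax5 and Cr2 were listed at 0 in all 6 libraries and none was called by limma (1 had an unadjusted p under 0.05), with Cd79b the highest at 10.9 to 21.6 TPM. Of 9 myeloid markers, S100a8, S100a9 and Csf3r were listed at 0 in all 6 libraries, but both tested ones were called. Lyz2 was at 17.1 to 30.9 TPM in CD4SP and 3.64 to 8.33 TPM in CD8SP (limma adjusted p 0.00872), and Cd68 at 0.596 to 6.59 TPM and 13.5 to 17.5 TPM (limma adjusted p 0.0127). The part of such cells in the levels below was not tested. In bulk RNA of sorted cells, fewer cells of a type and less RNA per cell cannot be told apart.

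Sequences upstream of 4 of these genes are given because the genes stood apart between the populations. For Ptpn6 and Ptpn11, a further reason is that transcripts of these sister enzymes went in opposite directions. Each run is the 250 bases before a RefSeq start site in the GRCm38.p6 assembly, 5′ to 3′ on the strand of the gene. Capitals mark 3 short letter patterns, searched on both strands: CNGGAAG, which holds the core letters bound by ETS factors, TGTGGT, letters bound by RUNX factors such as the Runx1 of the cassette, and the GC box GGGCGG. Of 32851 mouse windows of the same length, 26.6% held the ETS letters, 14.0% the RUNX letters and 32.7% the GC box. The windows are chr19:10738975-10739224 on the minus strand for Cd5, chr1:135132450-135132699 on the plus strand for Ptpn7, chr5:121191398-121191647 on the minus strand for Ptpn11 and chr6:124738710-124738959 on the minus strand for Ptpn6.
Cd5: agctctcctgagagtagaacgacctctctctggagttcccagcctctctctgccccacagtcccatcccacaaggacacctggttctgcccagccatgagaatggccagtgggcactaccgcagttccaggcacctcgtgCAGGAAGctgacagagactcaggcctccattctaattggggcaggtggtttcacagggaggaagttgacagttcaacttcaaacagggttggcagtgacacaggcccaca
Ptpn7: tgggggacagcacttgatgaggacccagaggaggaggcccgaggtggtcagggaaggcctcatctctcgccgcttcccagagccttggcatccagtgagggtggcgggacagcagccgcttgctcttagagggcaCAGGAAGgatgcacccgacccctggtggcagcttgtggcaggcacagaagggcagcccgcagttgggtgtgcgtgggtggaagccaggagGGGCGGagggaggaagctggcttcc
Ptpn11: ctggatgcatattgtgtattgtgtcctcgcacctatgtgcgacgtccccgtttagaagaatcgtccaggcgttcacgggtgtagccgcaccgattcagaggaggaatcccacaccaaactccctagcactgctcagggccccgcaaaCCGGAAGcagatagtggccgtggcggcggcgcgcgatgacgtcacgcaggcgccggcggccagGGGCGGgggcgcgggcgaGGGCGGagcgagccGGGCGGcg
Ptpn6: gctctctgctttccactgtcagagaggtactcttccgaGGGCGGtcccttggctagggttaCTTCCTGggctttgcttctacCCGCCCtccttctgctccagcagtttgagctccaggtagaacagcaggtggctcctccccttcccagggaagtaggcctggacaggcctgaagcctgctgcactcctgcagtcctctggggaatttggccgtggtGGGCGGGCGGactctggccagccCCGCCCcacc
The window of Cd5 held the ETS letters 110 bases before its start and no GC box. In the first window of Ptpn7, the ETS letters lay 115 bases and a GC box 25 bases before the start. That of Ptpn11 held the ETS letters 103 bases before the start and GC boxes at 40, 22 and 8 bases, and that of Ptpn6 the ETS letters at 189 bases and 5 GC boxes, of which those at 33 and 29 bases overlap. The RUNX letters were in none of these 4 windows, which says only that these letters are not in them. Of the other genes, Csk held the ETS letters 90 bases before its first start, Ptprc 57 bases before, and a second window of Ptpn22 held the RUNX letters at 165 and 48 bases. No upstream sequence was at hand for Ptprcap or for Cd6, which also stood apart between the populations. That of Ptpn2 was not used here.

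The 10 genes spanned a 74.7-fold range of mean TPM. Ptprcap lay in the top 0.783% of tested genes by level, and Ptpn11, the lowest, in the top 37.0%. In CD4SP cells the order of mean TPM was Ptprcap, Cd6, Cd5, Ptpn6, Csk, Ptpn22, Ptpn7, Ptpn2, Ptprc and Ptpn11. The libraries of the neighbours Cd6 and Cd5, Ptpn6 and Csk, Ptpn2 and Ptprc, and Ptprc and Ptpn11 overlapped in this order. In CD8SP cells the order was Ptprcap, Ptpn6, Csk, Cd6, Ptpn22, Cd5, Ptpn2, Ptpn7, Ptprc and Ptpn11, with overlapping libraries for Csk, Cd6 and Ptpn22. Ptpn6 thus stood second only to Ptprcap in CD8SP cells, and Cd5 had moved from the third place in CD4SP cells to the sixth.

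Differences between populations were tested with limma on log2(TPM + 1), with the p-values of all tested genes adjusted together (Benjamini-Hochberg). To be called, a gene needed a limma adjusted p under 0.05 together with a change of more than 2-fold on that scale. Of the 10 genes, 3 were called higher in CD4SP (Cd5, Ptpn7 and Ptpn11), against 7.92% of all tested genes called in that direction and 9.73% in either. None was called higher in CD8SP by limma, against 1.8% of all genes, and 1 (Ptpn6) was higher there at an unadjusted p under 0.05. On the limma adjusted p alone, 5 of the 10 passed, against 20.8% of all genes. These were 4 higher in CD4SP (Cd6 beside the called genes), against 17.6%, and Ptpn6 higher in CD8SP, against 3.23%. The libraries of both populations did not overlap for 6 of the 10 genes, against 43.2% of all genes. For Cd5, Cd6, Csk, Ptpn7 and Ptpn11 all CD4SP libraries lay above, as for 36.6% of all genes, and for Ptpn6 all CD8SP libraries lay above, as for 6.61%. The median log2 fold change of the 10 genes was 0.30, close to the 0.28 of all tested genes.

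**Figure D1:**
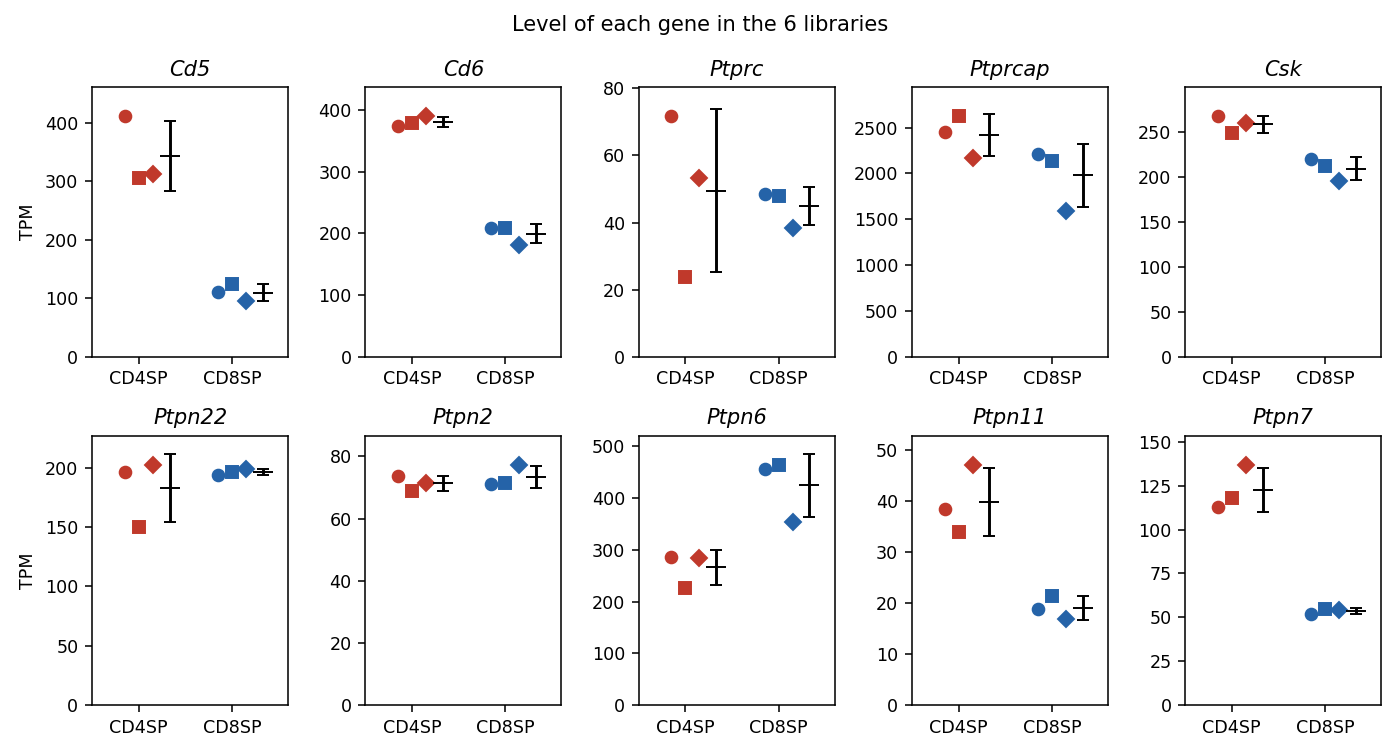
TPM of each of the 10 genes in the 3 CD4SP and 3 CD8SP libraries, 1 panel per gene with its own linear axis from 0; circles, squares and diamonds are replicates 1, 2 and 3, and bars are the mean and SD of 3 libraries. Cd5, Cd6, Csk, Ptpn7 and Ptpn11 lie higher in all CD4SP libraries and Ptpn6 in all CD8SP libraries, while CD4SP replicate 2 of Ptprc sits at 23.7 TPM, below every other library.

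**Figure D2:**
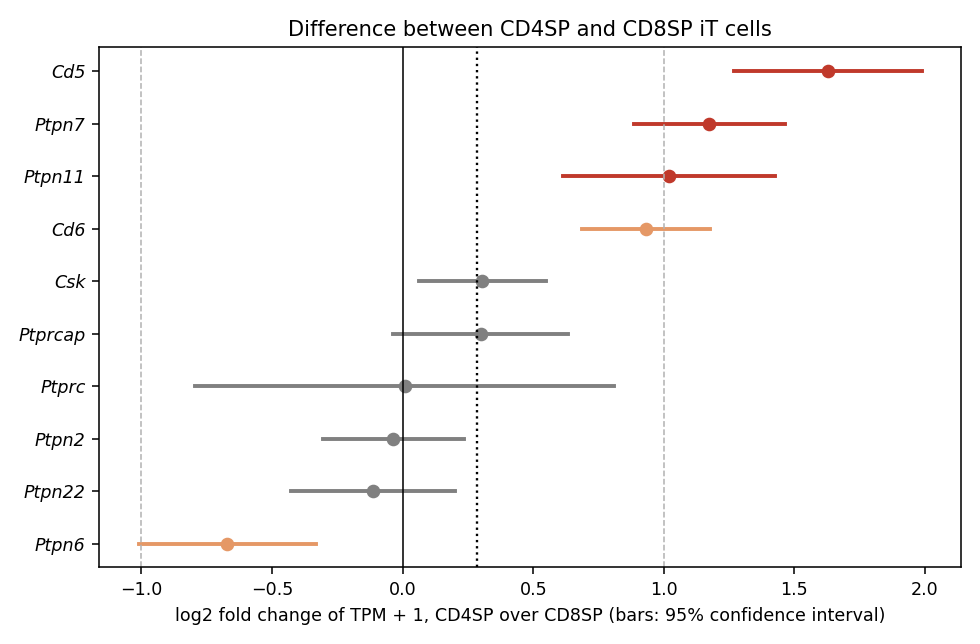
Log2 fold change (CD4SP over CD8SP) of each gene on the log2(TPM + 1) scale with its 95% confidence interval from limma, with a dotted line at the median of all tested genes (0.28) and dashed lines at a 2-fold difference; called genes are red, those past the adjusted p alone orange and the rest grey. Cd5 lies farthest to the right at 1.63 and Ptpn6 farthest to the left at -0.67, and the interval of Ptprc is the widest.

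Transcripts of Cd5 and Cd6 were both higher in CD4SP cells, with Cd5 called and Cd6 past the limma adjusted p alone. Cd5 (ENSMUSG00000024669.8, chromosome 19, 10717116 to 10739002, protein coding) encodes a scavenger receptor cysteine-rich (SRCR) receptor that dampens TCR signalling. In replicates 1 to 3 it was at 411, 305 and 312 TPM for CD4SP, and at 110, 124 and 94.95 TPM for CD8SP; values of the other genes are in the same order. Every CD4SP library was above every CD8SP library. The means were 343 ± 59.5 TPM (SD, n = 3) and 110 ± 14.4 TPM (SD, n = 3). The log2 fold change was 1.63 (SE 0.157, 95% interval 1.27 to 1.99, limma adjusted p 0.000350), which is 1.34 above the median of all genes. Cd5 was called under each of the 17 alternative settings, with log2 fold changes from 1.32 to 1.72.

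Cd6 (ENSMUSG00000024670.17, chromosome 19, 10789341 to 10830058, protein coding) encodes a related SRCR receptor that binds ALCAM on other cells. It was at 373, 378 and 390 TPM in the CD4SP libraries, against 208, 208 and 182 TPM in the CD8SP ones. These groups did not overlap either, and the CD4SP libraries differed by little among themselves. This was a log2 fold change of 0.93 (SE 0.107, 95% interval 0.69 to 1.18, limma adjusted p 0.000883). Cd6 therefore passed the adjusted p but not the 2-fold limit, and its interval reaches past that limit.

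The ratio of Cd5 to Cd6 within a library does not change with the scaling of that library. It was 1.10, 0.806 and 0.800 in the CD4SP libraries, against 0.531, 0.594 and 0.523 in the CD8SP ones. Cd5 was thus near the level of Cd6 in CD4SP cells and well below it in CD8SP cells, with no overlap. The mean log2 ratio was higher by 0.70 in CD4SP, with an exact two-sided permutation p of 0.1 (n = 3 and 3; 0.2 after adjustment over the 6 ratios), and 0.1 is the smallest p that 3 libraries against 3 can give.

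Markers of regulatory T cells and of a recent antigen signal were, like Cd5, mostly higher in CD4SP than in CD8SP cells. The 8 regulatory T cell markers summed to 1787 to 2142 TPM in the CD4SP libraries, against 310 to 363 TPM in the CD8SP ones. Of the 8, 7 were called higher in CD4SP, against 7.92% of all tested genes. Foxp3, the defining regulator, was at 142, 6.56 and 167 TPM in the CD4SP libraries, against 7.48, 7.48 and 10.05 TPM in the CD8SP ones. The antigen-signal genes, of which Egr3 was listed at 0 in all libraries, summed to 309 to 344 TPM in the CD4SP libraries, against 170 to 188 TPM in the CD8SP ones. Of the 4 tested genes, 3 were called higher in CD4SP. Cd69, the largest part of this sum, passed the limma adjusted p (0.00876) but not the 2-fold limit (log2 fold change 0.62). In CD4SP replicate 2 only Foxp3 of these 8 was near its CD8SP level, while Il2ra was at 92.0 TPM, Ctla4 at 814 TPM and Tnfrsf18 at 712 TPM, far above all CD8SP libraries. The part of these cells in the level of Cd5 was not tested.

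Cd5 and Cd6 lie next to each other on chromosome 19, both on the minus strand, with 50.3 kb between them. A processed transcript on the other strand, A430093F15Rik (10740947 to 10786043), fills most of the gap. It was at 71.4, 74.3 and 56.1 TPM in the CD4SP libraries, against 27.4, 31.3 and 18.4 TPM in the CD8SP ones, and was called higher in CD4SP (log2 fold change 1.38, limma adjusted p 0.00368). On the far side of Cd6, Slc15a3, which encodes a lysosomal peptide and histidine transporter, was at 17.4, 16.2 and 11.1 TPM against 1.23, 1.04 and 1.15 TPM. Its log2 fold change was 2.87 (limma adjusted p 0.000185). Leaving aside Cd5 and Cd6, 2 of the 6 tested genes within 100 kb were thus called, against 9.73% of all tested genes, a number too small to read further. The next tested gene, Tmem109, had a log2 fold change of 0.83 and passed the limma adjusted p (0.0295) without reaching 2-fold. The genes of the window that were not called reached from -0.82 (Prpf19, limma adjusted p 0.468, where CD4SP replicate 2 was at 0.0276 TPM) to 0.93 (Cd6). These neighbours, other than Cd6, were singled out after their values were seen. Within 100 kb of the other members, 2 of 7 tested genes were called for Ptpn22 and 1 of 10 for Ptpn6. The counts were 0 of 12 for Ptprcap, 0 of 7 for Csk, 0 of 4 for Ptpn2, 0 of 2 for Ptpn7 and 0 of 1 for Ptpn11. Ptprc had no tested neighbour. Like Tmem109, some of these uncalled neighbours passed the limma adjusted p without reaching 2-fold. Beside Ptpn7 these were Arl8a (log2 fold change 0.95, limma adjusted p 0.0200) and Ptprv (0.70, limma adjusted p 0.0463). Beside Csk it was Scamp2 (0.59, limma adjusted p 0.0254), and beside Ptpn11, toward CD8SP, Rpl6 (-0.385, limma adjusted p 0.0215).

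**Figure D3:**
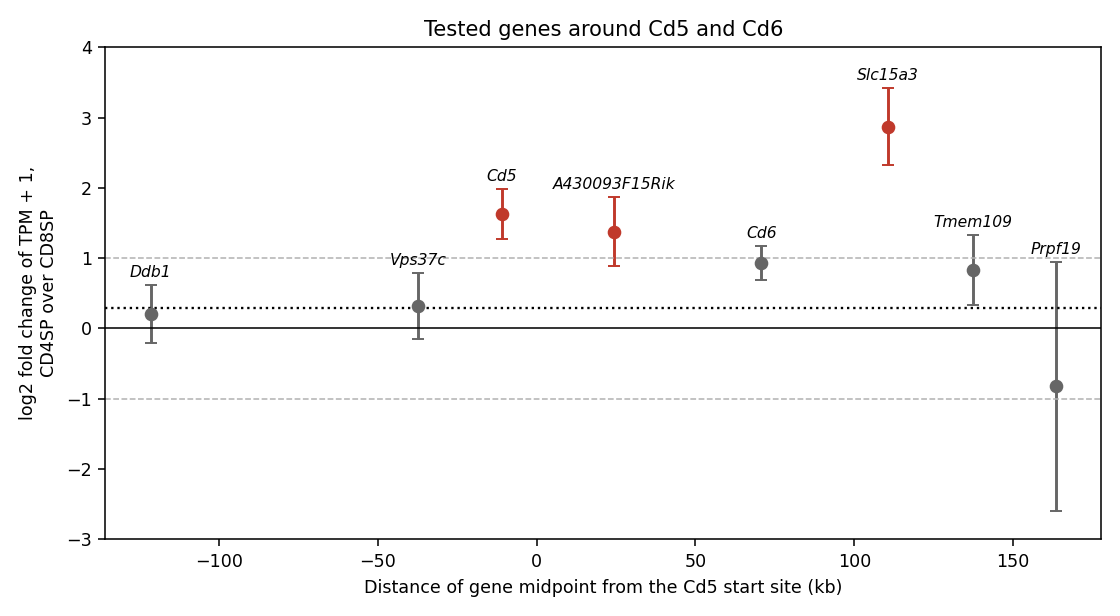
Log2 fold change (CD4SP over CD8SP) with 95% limma confidence intervals of the 8 tested genes around Cd5 and Cd6, placed by the distance in kb of each gene body's middle from the Cd5 start; red marks called genes, the dotted line the median of all tested genes and the dashed lines a 2-fold difference. Cd5 (1.63), A430093F15Rik (1.38), Cd6 (0.93) and Slc15a3 (2.87) lie next to each other, Tmem109 beyond them is at 0.83 and Prpf19 at -0.82 with the widest interval, and Vps37c and Ddb1 on the other side of Cd5 are at 0.32 and 0.20.

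Transcripts of CD45 and its partner did not differ between the populations by more than the spread of the libraries. Ptprc (ENSMUSG00000026395.16, chromosome 1, 138062861 to 138175708, protein coding) encodes CD45, whose CD45.2 form was in the sort gate of both populations. It was at 71.7, 23.7 and 53.3 TPM in the CD4SP libraries, against 48.5, 48.0 and 38.5 TPM in the CD8SP ones. The CD8SP libraries lie inside the range of the CD4SP libraries, of which the highest was 3.03 times the lowest. The log2 fold change was 0.0073 (SE 0.351, 95% interval -0.79 to 0.81, limma adjusted p 0.989), an interval that covers differences of both signs and is the widest of the 10 genes. Without CD4SP replicate 2 the log2 fold change was 0.46 (limma adjusted p 0.0866), and without CD4SP replicate 1 it was -0.32.

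CD4SP replicate 2 was low for most of these genes, being the lowest CD4SP library for 7 of 10. Its difference from the mean of the other 2 CD4SP libraries on the log2 scale ran from -1.35 for Ptprc and -0.41 for Ptpn22 to 0.19 for Ptprcap. Over genes of at least 10 TPM the median of this difference was -0.06 for longest transcripts of up to 2000 nt, -0.27 from there to 4000 nt, -0.28 to 6000 nt and -0.31 beyond. The longest Ptprc transcript has 5740 nt, so its -1.35 lay far below the median of its length class. Cd6, whose longest transcript has 4683 nt, was at -0.01, Ptpn11 with 7442 nt at -0.32 and Ptprcap with 1082 nt at 0.19. TPM per gene also cannot tell the CD45.1 from the CD45.2 form or the exon isoforms of CD45.

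Ptprcap (ENSMUSG00000045826.9, chromosome 19, 4153604 to 4156751, protein coding) encodes a small membrane protein that binds CD45. It was at 2449, 2625 and 2171 TPM in the CD4SP libraries, against 2210, 2138 and 1588 TPM in the CD8SP ones, the highest of the 10 genes in every library. The groups overlapped, and the log2 fold change was 0.30 (SE 0.147, 95% interval -0.04 to 0.63, limma adjusted p 0.177). Ptprcap shares 432 nt of transcript sequence with Coro1b on the same strand and 401 nt with Rps6kb2 on the opposite one, so part of its reads may be counted with either gene. Coro1b was at 281 to 433 TPM (log2 fold change 0.26, limma adjusted p 0.213) and Rps6kb2 at 10.4 to 17.5 TPM (-0.22, limma adjusted p 0.461).
The ratio of Ptprcap to Ptprc was 34.1, 111 and 40.8 in the CD4SP libraries, against 45.5, 44.5 and 41.2 in the CD8SP ones. CD4SP replicate 2 stands apart here and the other libraries lie close together. The log2 difference was 0.29 (exact two-sided permutation p = 1, n = 3 and 3), and -0.23 without that library.

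Neither Csk nor its partner phosphatase passed the limma adjusted p, and both values moved with the scaling. Csk (ENSMUSG00000032312.7, chromosome 9, 57626646 to 57653631, protein coding) encodes the kinase that holds Lck inactive. It was at 267, 248 and 259 TPM in the CD4SP libraries, against 220, 212 and 195 TPM in the CD8SP ones. All CD4SP libraries lay above all CD8SP libraries, but the log2 fold change of 0.31 (SE 0.106, 95% interval 0.06 to 0.55) did not pass after adjustment (limma adjusted p 0.0737) and was only 0.02 above the median of all genes. After median-of-ratios rescaling, which brings that median to 0, it was -0.0012. The limma adjusted p was 0.0371 without CD4SP replicate 2 and 0.0302 with library weights.

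Ptpn22 (ENSMUSG00000027843.13, chromosome 3, 103859795 to 103912247, protein coding) encodes a phosphatase that binds Csk and acts on Lck and ZAP70. It was at 197, 150 and 202 TPM in the CD4SP libraries, against 194, 196 and 199 TPM in the CD8SP ones. The CD8SP libraries lie close to each other, and the low library was again CD4SP replicate 2. Their log2 fold change was -0.11 (SE 0.138, 95% interval -0.43 to 0.20, limma adjusted p 0.581). After median-of-ratios rescaling it was -0.42 with a limma adjusted p of 0.0264, and after quantile normalization -0.33 (limma adjusted p 0.0798). The ratio of Ptpn22 to Csk was 0.736, 0.604 and 0.781 in the CD4SP libraries, against 0.881, 0.925 and 1.02 in the CD8SP ones. Each CD8SP library had more Ptpn22 per Csk transcript than each CD4SP library (log2 difference -0.42, exact two-sided permutation p = 0.1, n = 3 and 3, 0.2 adjusted over the 6 ratios).
The ratio of Csk to its substrate Lck was 0.142, 0.163 and 0.156 in the CD4SP libraries, against 0.123, 0.119 and 0.144 in the CD8SP ones, which overlap (log2 difference 0.26, exact two-sided permutation p = 0.2, 0.3 adjusted). That of Ptprc to Csk, the phosphatase and the kinase that oppose each other on the inhibitory tyrosine, was 0.190 ± 0.0876 (SD, n = 3) in the CD4SP libraries, against 0.215 ± 0.0154 (SD, n = 3) in the CD8SP ones (log2 difference -0.30, exact two-sided permutation p = 0.8, 0.96 adjusted).

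Ptpn2 (ENSMUSG00000024539.17, chromosome 18, 67665511 to 67724595, protein coding) encodes a phosphatase that acts on JAK kinases and Lck. It was at 73.8, 69.0 and 71.6 TPM in the CD4SP libraries, against 71.1, 71.4 and 77.3 TPM in the CD8SP ones. The populations overlapped, and no library stood apart. The log2 fold change was -0.04 (SE 0.118, 95% interval -0.31 to 0.23, limma adjusted p 0.848), a narrow interval around 0 on this scaling. After median-of-ratios rescaling it was -0.34 (limma adjusted p 0.0885).

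Transcripts of the sister phosphatases SHP1 and SHP2, enzymes that dock through SH2 domains on phosphorylated receptors and adaptors, went in opposite directions. Ptpn6 (ENSMUSG00000004266.15, chromosome 6, 124720707 to 124738714, protein coding) encodes SHP1, an inhibitor of TCR signalling. It was at 286, 226 and 285 TPM in the CD4SP libraries, against 455, 464 and 354 TPM in the CD8SP ones. It was the single gene of the 10 with all CD8SP libraries above all CD4SP libraries. The log2 fold change was -0.67 (SE 0.149, 95% interval -1.01 to -0.33, limma adjusted p 0.0162), or -0.95 relative to the median of all genes. It did not reach 2-fold, and the limma adjusted p was 0.0685 without CD8SP replicate 1, 0.0694 without CD8SP replicate 2 and 0.0677 with these 2 similar libraries averaged. The 5 NK cell markers summed to 55.1 to 64.5 TPM in CD8SP and 9.88 to 11.998 TPM in CD4SP libraries, with Ncr1, Klra8 and Klra4 listed at 0 in all 6, and their part in the level of Ptpn6 was not tested. Both tested NK cell markers were called higher in CD8SP. Eomes, which CD8 T cells are also known to express, made up most of the sum, at 49.9 to 55.4 TPM in CD8SP and 8.19 to 10.6 TPM in CD4SP libraries. Klrb1c, which encodes an NK cell receptor, was at 7.49, 9.14 and 5.22 TPM in CD8SP and 1.37, 0.682 and 1.82 TPM in CD4SP libraries (log2 fold change -1.86, limma adjusted p 0.00426). An antisense gene, Gm20531, shares 201 nt with Ptpn6.

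Ptpn11 (ENSMUSG00000043733.14, chromosome 5, 121130533 to 121191397, protein coding) encodes SHP2, which also carries signals toward Ras and ERK. It was at 38.3, 33.9 and 47.1 TPM in the CD4SP libraries, against 18.9, 21.4 and 16.8 TPM in the CD8SP ones. The groups did not overlap, and their log2 fold change was 1.02 (SE 0.178, 95% interval 0.61 to 1.42, limma adjusted p 0.00595), just past the 2-fold limit. It fell short of that limit without CD4SP replicate 3 (0.89), without CD8SP replicate 3 (0.94) and under 3 other scalings (0.71 to 0.87), while its limma adjusted p stayed at 0.0259 or lower in all 17 settings.

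The ratio of Ptpn6 to Ptpn11 differed more between the populations than either transcript alone, which follows from their opposite directions and is no separate result. It was 7.47, 6.67 and 6.04 in the CD4SP libraries, against 24.0, 21.7 and 21.1 in the CD8SP ones. The highest CD4SP ratio was well under the lowest CD8SP ratio, and Ptpn6 was the more abundant transcript in every library. The means were 6.73 ± 0.715 (SD, n = 3) and 22.3 ± 1.56 (SD, n = 3), and the log2 difference was -1.73 (exact two-sided permutation p = 0.1, the smallest possible, and 0.2 adjusted over the 6 ratios). With 1 library left out it lay between -1.81 and -1.65.

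**Figure D4:**
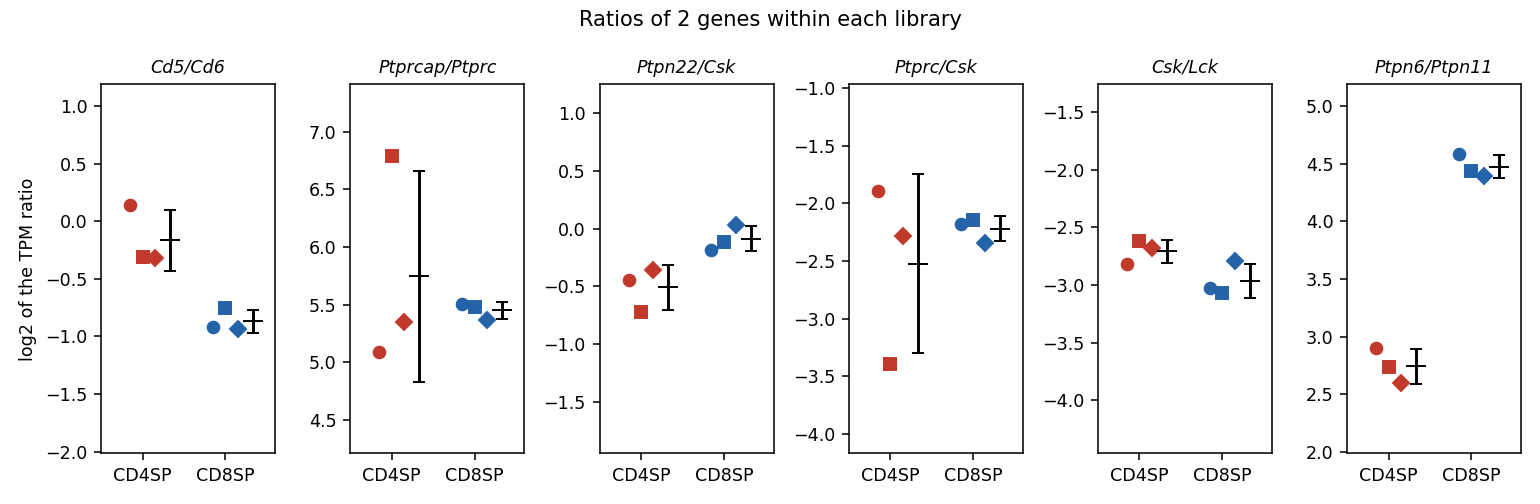
Log2 ratio of TPM of 6 gene pairs in each library, with circles, squares and diamonds for replicates 1, 2 and 3 and bars for the mean and SD; every panel spans the same number of log2 units, and the axes do not start at 0. The populations are farthest apart for Ptpn6 over Ptpn11 (log2 difference -1.73), and 1 CD4SP library, replicate 2, stands apart for Ptprcap over Ptprc and Ptprc over Csk.

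Ptpn7 (ENSMUSG00000031506.11, chromosome 1, 135132700 to 135145317, protein coding) encodes HePTP, a phosphatase of blood cells that binds and inactivates the MAP kinases ERK and p38. It was at 113, 118 and 137 TPM in the CD4SP libraries, against 51.8, 54.6 and 54.2 TPM in the CD8SP ones. The lowest CD4SP library was well above the highest CD8SP library, a log2 fold change of 1.17 (SE 0.127, 95% interval 0.88 to 1.46, limma adjusted p 0.000637). After median-of-ratios rescaling it was 0.87 and after quantile normalization 0.92, both under the 2-fold limit, with limma adjusted p 0.00294 and 0.00194.

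**Figure D5:**
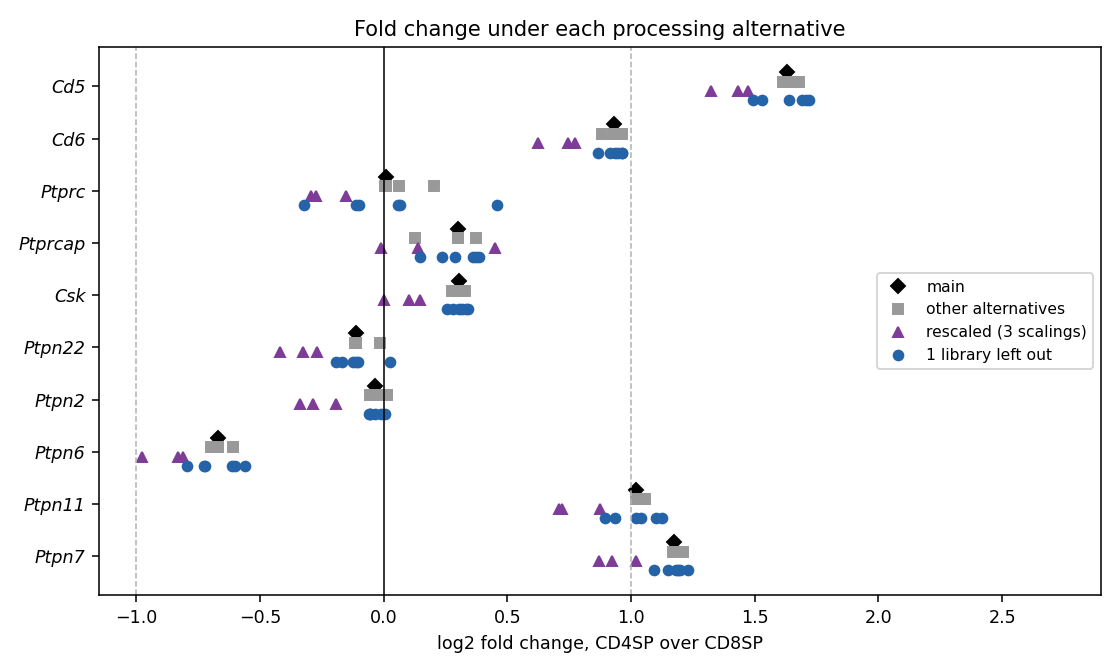
Log2 fold change (CD4SP over CD8SP) of each gene in the reported fit and under each alternative; triangles are 3 other scalings, circles leave out 1 library each and squares are the other settings. The dashed lines mark a 2-fold difference: every setting of Cd5 lies beyond it, those of Ptpn7 and Ptpn11 lie on both sides, and those of Ptprc lie on both sides of 0.

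Genes that these 10 act with, and relatives of their families, were then taken from 7 lists of 91 genes. Of these, 61 were tested and 17 were listed at 0 in all libraries. Of the 61, 11 (18.03%) were called, against 9.73% of all tested genes. These were 7 toward CD4SP and 4 toward CD8SP, against 7.92% and 1.8% of all genes. On the limma adjusted p alone 26 passed, against 20.8% of all genes, 22 toward CD4SP and 4 toward CD8SP, against 17.6% and 3.23%. The lists were chosen with earlier results known, so these counts are a description. None of the 11 called genes changed direction under any alternative in which it was tested. Among 32 other classical tyrosine phosphatases 11 were tested, 12 were listed at 0 in all libraries, and the median log2 fold change was 0.70 against 0.28 for all genes. Ptpn13 (log2 fold change 1.52), a large cytosolic phosphatase, and Ptpra (1.02), a receptor phosphatase that activates Src family kinases, were called higher in CD4SP, and 5 passed the limma adjusted p, all higher in CD4SP. Ptpra was under the 2-fold limit without CD4SP replicate 1, CD4SP replicate 3 or CD8SP replicate 3, and under all 3 other scalings (0.71 after median-of-ratios rescaling). The most abundant, Ptpn18, was at 432 ± 80.5 TPM (SD, n = 3) in the CD4SP libraries, against 410 ± 42.8 TPM (SD, n = 3) in the CD8SP ones (limma adjusted p 0.792).

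Adaptors that dock Csk or restrain signalling were all tested, 9 of 9, with a median of 0.57. Sit1 (1.14), a transmembrane adaptor that recruits inhibitory enzymes, and Matk (1.21), the Csk-related kinase, were called higher in CD4SP, and 5 passed the limma adjusted p. Sit1 was under the 2-fold limit in all 3 other scalings (0.83 after median-of-ratios rescaling), and Matk in the median-of-ratios (0.90) and quantile ones. The most abundant was Lime1, at 545 ± 14.6 TPM (SD, n = 3) in the CD4SP libraries, against 502 ± 54.1 TPM (SD, n = 3) in the CD8SP ones (limma adjusted p 0.450). Of 12 ligands and bound proteins of CD5 and CD6, 11 were tested and the median was 0.46. By limma, 0 were called, 3 passed the adjusted p, all higher in CD4SP, and 5 had an unadjusted p under 0.05. Csnk2b, a subunit of the casein kinase that binds the tail of CD5, was the most abundant, at 283 ± 7.24 and 277 ± 14.7 TPM (SD, n = 3 each; limma adjusted p 0.824).

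All 15 substrates of these enzymes were tested, with a median of 0.32. By limma, 1 was called and 5 passed the adjusted p, all higher in CD4SP. Lck was the most abundant, at 1690 ± 179 TPM (SD, n = 3) in the CD4SP libraries, against 1641 ± 250 TPM (SD, n = 3) in the CD8SP ones (limma adjusted p 0.824). Transcripts of the target shared by Csk, Ptprc and Ptpn22 thus did not differ beyond their spread.

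The receptors and adaptors that dock SHP1 or SHP2 were split, with 8 of 13 tested and a median of -0.06. Btla, an inhibitory receptor, was called higher in CD4SP (1.06), and was under the 2-fold limit without CD8SP replicate 3 and in all 3 other scalings (0.76 after median-of-ratios rescaling). Lair1, a collagen receptor (-1.58), Cd22, a sialic acid receptor known from B cells (-1.27), and Gab3, an adaptor (-1.17), were called higher in CD8SP. Cd22 was not called without CD8SP replicate 2 (limma adjusted p 0.0502). Beside Cd22, the B cell markers summed to 18.4 to 25.4 TPM in the CD4SP libraries, against 24.0 to 28.7 TPM in the CD8SP ones. The most abundant over all 6 libraries, Pdcd1, which encodes PD-1, was at 115 ± 14.1 and 81.9 ± 5.46 TPM (SD, n = 3 each, log2 fold change 0.47, limma adjusted p 0.0390). In the CD4SP libraries alone Btla had the higher mean, 121 ± 16.3 TPM (SD, n = 3).

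Of 6 factors that set the exon splicing of Ptprc, all were tested and 1 was called. Hnrnpll, which promotes skipping of the variable CD45 exons, was at 101, 73.6 and 103 TPM in the CD4SP libraries, against 34.0, 33.8 and 29.6 TPM in the CD8SP ones (log2 fold change 1.47, limma adjusted p 0.000783). The populations did not overlap, and the gene-level values of Ptprc do not show which exons were used. Sfpq was the most abundant, at 120 ± 11.8 and 84.5 ± 5.31 TPM (SD, n = 3 each; limma adjusted p 0.0263). Of 4 other SRCR receptors, 1 was tested, and Cd163l1 was called higher in CD8SP (-1.21), the opposite direction from Cd5 and Cd6.

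The tested genes whose profiles over the 6 libraries were most like those of the called genes were found by the root mean square difference of centred log2(TPM + 1) values. For Cd5 they were Susd3 (0.0643), 9430091E24Rik (0.0738) and Trerf1 (0.0973). For Ptpn7 they were Srgn (0.0432), which encodes the granule proteoglycan serglycin, Hivep2 (0.0524) and Tspan13 (0.0545), and for Ptpn11 they were Lclat1 (0.045), Hsd17b7 (0.0539) and Kat2b (0.0591). Susd3, the nearest to Cd5, was at 127 to 177 TPM in the CD4SP libraries, against 38.4 to 54.3 TPM in the CD8SP ones, and Srgn, the nearest to Ptpn7, at 2267 to 2727 and 1100 to 1187 TPM.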

How the data were processed

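Polyadenylated RNA of 1000 sorted cells per library was amplified with a whole-transcriptome kit and sequenced. The authors aligned reads with HISAT2 to mm10, estimated expression with StringTie and deposited TPM. Strand use was not given in the sources used here, so overlapping antisense genes may share reads. Groups came from sample titles.

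Values were analysed as log2(TPM + 1), which understates changes of low genes, with limma 3.58.1 in R 4.3.3 (lmFit, eBayes with trend). Genes at 1 TPM or more in 3 or more of 6 libraries were tested and the p-values adjusted over all of them. The scripts were tested on simulated data. Ratios were compared by exact two-sided permutation tests. Positions are from GENCODE on GRCm38, 1-based, and upstream sequences from RefSeq. Shared transcript sequence was searched with blastn 2.17.0 (at least 95% identity over 200 nt). The genes and lists were chosen with earlier results of these data known. Genes named beside the 10 were Cd4, Cd8a, called list genes, the most abundant of each list, the 3 most like each called gene and overlapping genes. Any other was chosen after its values were seen. A single gene of the lists is not reported here. Alternatives changed the pseudocount, filter, scaling, trend, weights, block, fold threshold and libraries. The check of transcript length was chosen after seeing the data.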

Additional observations from a re-analysis of the deposited data

How the results depend on the processing

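The count of called genes among the 10 was 3. It became 1 (Cd5) after median-of-ratios rescaling and after quantile normalization, 5 with no fold threshold, and 2 to 3 with 1 library left out. The count of called list genes, 11, became 7 under each of 3 scalings (median-of-ratios, quantile, ribosomal protein genes removed) and 26 with no fold threshold. The 1019 called genes became 2183 with no fold threshold, and 817 to 1202 with 1 library left out. With CD8SP replicates 1 and 2 averaged they became 823, with the same 3 of the 10 among them. Median-of-ratios rescaling left 790 of the 10476 tested genes called, and quantile values left 777. Against either background, 1 called gene of the 10 is too few to read as an excess. When ribosomal protein genes were taken out, 887 of 10397 tested genes were called, with 2 of the 10 (Cd5 and Ptpn7) among them. Of called genes 81.5% were higher in CD4SP, against 61.9%, 57.1% and 72.7% under the same scalings in that order, and the median of all genes went from 0.28 to 0.0002, -0.02 and 0.14.

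Ptprc (0.0073) reversed to -0.29, -0.27 and -0.15 under these 3 scalings and lay between -0.32 and 0.46 with 1 library left out. After median-of-ratios rescaling Ptprcap reversed to -0.0094 and Csk to -0.0012. Ptpn2 reversed to 0.013 with library weights and lay between -0.059 and 0.0031 with 1 library left out, and Ptpn22 between -0.19 and 0.023. The log2 ratio difference lay between -0.23 and 0.62 for Ptprcap over Ptprc and between -0.62 and 0.13 for Ptprc over Csk. The cause was not tested. With the replicate block, 997 genes and the same 3 of the 10 were called. Same-numbered libraries had deviations correlated across genes at 0.05, -0.02 and 0.09, so the numbers were not taken as pairs. TPM keeps no depth, so no detection limit could be set.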

Other observations

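Lax1, an adaptor of the Csk docking list singled out after its values were seen, was at 112 or more TPM in CD4SP replicate 1 and CD8SP replicate 1, at 82.8 TPM in CD8SP replicate 3, and at 0.656, 0.416 and 2.19 TPM in CD4SP replicates 2 and 3 and CD8SP replicate 2. Libraries of both populations were thus found at both levels. Alcam, which encodes the ligand of CD6, was at 5.29, 2.60 and 4.92 TPM in the CD4SP libraries, against 2.04, 2.36 and 1.83 TPM in the CD8SP ones, and Cdcp1, a further reported ligand, was listed at 0 in all 6.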
